A study of Mus musculus with 16 samples.

Results

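Hepatokines, the metabolic hormones that the liver secretes, and the hepatic receptors through which FGF21, leptin, insulin and glucagon act were followed in the livers of 16 mice. The 9 genes listed were the secreted factors Fgf21, Angptl4, Gdf15, Inhbe and Fst and the receptor genes Klb, Lepr, Insr and Gcgr. A gene was kept when the array annotation gave at least 1 transcript cluster to that gene alone, and where there were several, the cluster with the highest mean was used. In all, 7 genes were kept of 18820 genes that had such a cluster, and all 7 were among the 14275 genes tested. Gdf15 matched no cluster in the annotation used here, and the only cluster of Fst is shared with Thrap3, so neither has a value.

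Each array held the liver RNA of 1 male C57BL/6J mouse, 12 months old, on its diet since 9 weeks of age. There were 4 diets with 4 mice each: calorie restriction (CR), in which intake was cut by 30%; the medium-fat diet (MF), which supplied 25% of energy as fat; an intermittent diet (INT), which alternated weekly between restriction by 40% and free access to MF, and was sampled in a week of free access; and the control diet (C). Within each diet a pair of mice of high body weight and a pair of low body weight were used. In each pair, 1 mouse received WY14,643 (Wy), a synthetic agonist of the nuclear receptor PPARα, by gavage at 160 mg/kg, and its partner received the carboxymethyl cellulose vehicle (mock). All 16 mice were fasted for 4 h before the gavage and for the 6 h between gavage and death, so every level below is that of a fasted liver. Before this fast CR mice were fed a limited portion once a day, while C, MF and INT mice fed freely. The time since the last meal may thus have differed between CR and the other diets. The body weight classes differ little in weight in CR and INT according to the study, which describes a wide spread of weight only in C and MF.

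PPARα is the receptor by which fasting fatty acids switch on hepatic fat oxidation and, in mouse liver, Fgf21 and Angptl4. FGF21 is a fasting and nutrient-stress hormone that signals through an FGF receptor paired with β-Klotho, the product of Klb. In hepatocytes β-Klotho, together with FGFR4, also receives the intestinal hormone FGF15, which restrains bile acid synthesis. ANGPTL4 inhibits lipoprotein lipase and so limits the uptake of plasma triglyceride. Inhbe encodes the βE subunit of activin E, a liver hormone that in mice acts on fat tissue. GDF15 is a stress-induced cytokine that lowers food intake, and follistatin, the product of Fst, binds and neutralises activins. LEPR, INSR and GCGR are the receptors of leptin, insulin and glucagon. The liver makes mainly short and soluble forms of LEPR, and the single Lepr cluster does not separate the isoforms.

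To show what lies before the start sites of members that rose together after Wy, the 250 bases before the RefSeq start (GRCm38.p6) are given for Fgf21, chr7:45615491-45615740, minus strand, and for Inhbe, chr10:127351849-127352098, minus strand. Capitals mark exact matches to the motifs searched.
Fgf21: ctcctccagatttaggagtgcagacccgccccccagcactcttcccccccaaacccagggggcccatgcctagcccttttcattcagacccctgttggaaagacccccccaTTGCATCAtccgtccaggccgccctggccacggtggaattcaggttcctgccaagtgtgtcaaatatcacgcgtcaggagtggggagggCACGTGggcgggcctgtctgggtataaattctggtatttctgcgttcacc
Inhbe: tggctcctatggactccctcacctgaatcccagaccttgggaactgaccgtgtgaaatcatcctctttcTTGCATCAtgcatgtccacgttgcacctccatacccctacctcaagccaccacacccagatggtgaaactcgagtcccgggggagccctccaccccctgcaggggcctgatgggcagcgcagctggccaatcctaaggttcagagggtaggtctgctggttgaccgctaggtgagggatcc

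Both windows hold the same 8 bases, TTGCATCA, which is TGATGNAA read on the opposite strand, the composite element bound by C/EBP and ATF factors. It begins 139 bases before the Fgf21 start and 181 bases before the Inhbe start, and 3.45% of 32851 promoters of this length hold a TGATGNAA on either strand. Fgf21 also holds the E-box CACGTG, 50 bases before its start, a motif found in 6.02% of promoters. The direct repeat of the consensus half-site with 1 base between, bound by PPAR and RXR (0.0335% of promoters), the cyclic AMP response element TGACGTCA (1.55%) and the forkhead element GTAAACA (3.17%) have no exact match in either window. All 5 motifs were searched on both strands, and no matches overlap. The windows of Klb, Gcgr and Lepr, the last with 2 start sites, hold none of the 5 motifs. Angptl4 and Insr had no entry in the promoter table used here. These are matches of letters in a short window and no binding was measured.

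Values are log2 RMA intensities, array-wide normalised brightness on a log2 scale, and 1 unit is a 2-fold difference. The median intensity of an array lay between 5.53 and 5.59, and arrays correlated with each other at 0.982 to 0.994. Of 16 PPARα target genes listed as a check of the Wy labels, 12 were tested, of which 11 rose and 0 fell after Wy. Hepatocyte markers were bright on all arrays (summed linear intensity of 5 markers 40205 to 48469), whereas the adipocyte hormone gene Adipoq stayed under the intensity filter of 20 on all 16 arrays. Of 3 adipocyte markers tested Fabp4 (1.39 ± 0.33) and Plin1 (0.16 ± 0.05) rose after Wy, with summed adipocyte markers of 215 to 1127 in Wy and 185 to 420 in mock livers. The 2 arrays of INT mice of high body weight carry another array code (G073) than the other 14 (G067), and the labels do not say what the code stands for. The livers are bulk tissue, in which fewer cells of a type and less RNA per cell cannot be told apart. A gene is said to have risen, fallen or been called when its adjusted p, by limma with Benjamini-Hochberg adjustment over all 14275 genes, was under 0.05. Overlap between groups is given as a description of the members. The share of all genes without overlap was not counted.

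**Figure D1:**
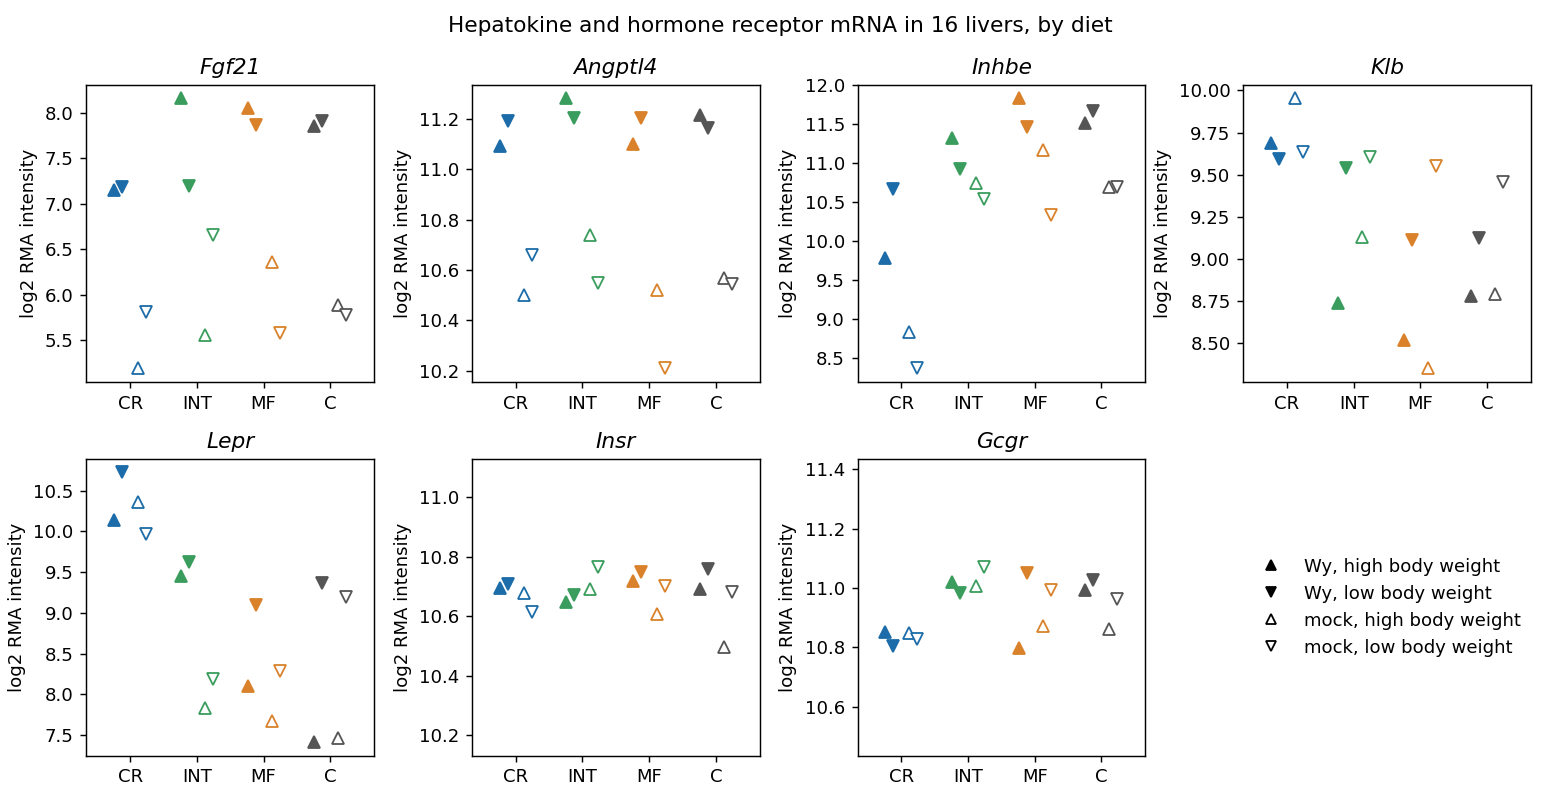
log2 RMA intensity (vertical axes, each with its own range) of the 7 genes in 16 livers by diet (horizontal axes), 1 point per mouse; filled points are Wy, open points mock, upward triangles high and downward triangles low body weight. Fgf21 and Angptl4 separate by treatment in every diet, whereas all 4 Lepr points of CR lie above, and 3 of its 4 Inhbe points below, those of the other diets. Insr spans 10.50 to 10.76 and Gcgr 10.80 to 11.07.

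The first comparison asked which hormone and receptor mRNAs responded to 6 h of PPARα activation. Fgf21, Angptl4, Inhbe and Lepr rose, and no member fell. These 4 of 7 members stand against 28.3% of all tested genes called, and 12.3% called higher. The secreted factors all moved in the same direction, and of the receptors only Lepr passed the test.

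Fgf21 measured 7.15 at its lowest, 7.86 at the median and 8.16 at its highest in Wy livers, against 5.19, 5.79 and 6.65 in mock livers. The groups did not overlap, and Fgf21 was higher in the Wy mouse of all 8 pairs. The difference was 1.82 ± 0.18 (SE), or 3.53-fold (limma with the pair as a block, adjusted p = 3.21e-05). The smallest pair difference, 0.54, was that of the low body weight INT mice, whose mock liver had the highest mock level, and the largest, 2.60, that of the high body weight INT mice. Of 6 measured markers of pancreatic acinar cells, 3 were under the filter on all arrays, and the summed intensity of the 6 was 104 to 114 in Wy livers and 105 to 111 in mock livers.

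Angptl4 measured 11.09, 11.20 and 11.28 (lowest, median, highest) in Wy livers, against 10.21, 10.55 and 10.74 in mock livers. The groups again did not overlap and all 8 pairs moved the same way. The rise of 0.65 ± 0.05 was 1.56-fold (limma, adjusted p = 1.13e-05), smaller than that of Fgf21 but with a narrower spread between pairs, of which 7 lay between 0.53 and 0.65.

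Inhbe measured 9.79, 11.39 and 11.83 in Wy livers, against 8.36, 10.62 and 11.17 in mock livers. The ranges overlap, with the CR livers lowest under both treatments, and within the pairs Wy was higher in all 8. The paired rise was 0.97 ± 0.17, or 1.96-fold (limma, adjusted p = 0.0013). It reached 2.30 in the low body weight CR pair and 0.38 in the low body weight INT pair.

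Lepr measured 7.42, 9.41 and 10.73 in Wy livers, against 7.47, 8.24 and 10.36 in mock livers, and the groups overlapped almost completely. It was higher in the Wy mouse of 6 of 8 pairs, by 0.62 ± 0.19 on average, or 1.53-fold (limma, adjusted p = 0.0316). The call was lost without the high body weight INT pair (0.47, adjusted p = 0.0725), the low body weight CR pair (0.60, adjusted p = 0.0613), the low body weight MF pair (0.59, adjusted p = 0.0712) or the low body weight INT pair (0.50, adjusted p = 0.0798). It was also lost without the replicate block of matched pairs (adjusted p = 0.088).

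Klb measured 8.52, 9.12 and 9.69 in Wy livers, against 8.35, 9.50 and 9.95 in mock livers. It was lower in the Wy mouse of 7 of 8 pairs, with a difference of -0.17 ± 0.07 that did not pass (limma, adjusted p = 0.0954). The call was gained without the high body weight MF pair, the only one in which Klb was higher after Wy (-0.22, adjusted p = 0.0325). Insr differed by 0.05 (95% confidence interval -0.05 to 0.15, adjusted p = 0.434) and Gcgr by 0.01 (-0.08 to 0.10, adjusted p = 0.883). A second Insr cluster gave 0.04 (limma, adjusted p = 0.549).

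**Figure D2:**
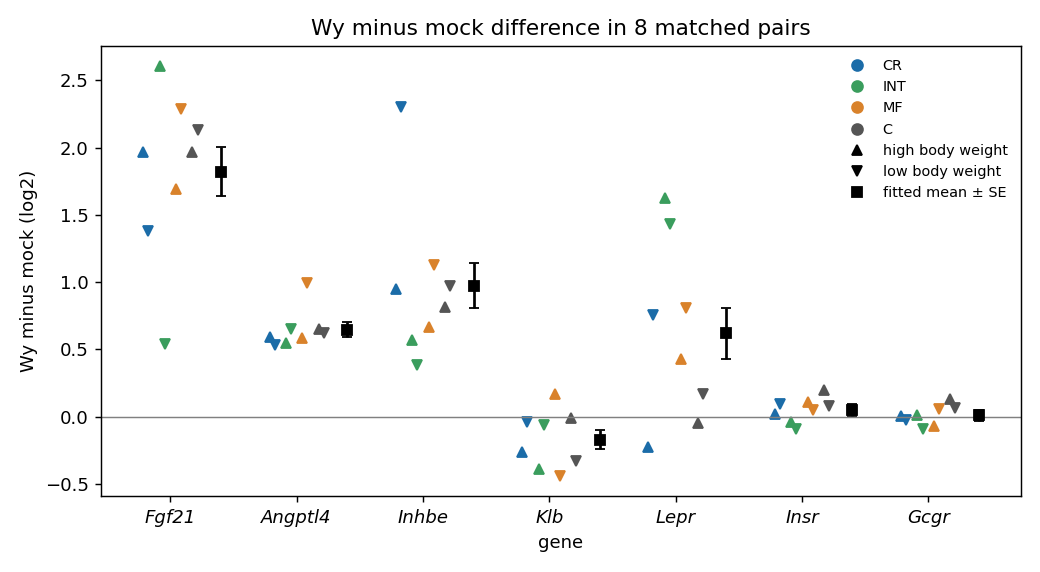
Wy minus mock difference in log2 intensity (vertical axis) of each gene (horizontal axis) in the 8 matched pairs, coloured by diet; squares with bars are the fitted mean ± SE over the pairs. All 8 points lie above 0 for Fgf21, Angptl4 and Inhbe, whereas the Lepr points run from -0.22 in a CR pair to 1.62 in an INT pair.

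Whether the response depended on diet was tested as an interaction. The Lepr difference was 1.62 and 1.43 in the high and low body weight INT pairs, 0.43 and 0.81 in the MF pairs, -0.22 and 0.75 in the CR pairs, and -0.05 and 0.17 in the C pairs. The INT pairs thus had the largest Lepr responses of the 8. The F statistic over diets was 9.72 for Lepr (limma, adjusted p = 0.947) and 3.16 for Inhbe (adjusted p = 0.997). No gene passed in this interaction (0% of genes called, 669 at an unadjusted p under 0.05), nor in that with body weight class (0%, 673 genes), so no member's response was shown to differ between diets or classes.

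The genes that act with these factors were read from lists, whose counts stand against 28.3% of all tested genes called after Wy (12.3% higher and 16% lower). Of 10 measured genes of FGF21 signalling, 2 rose and 3 fell after Wy. The FGF receptors moved in opposite directions: Fgfr4, the partner of β-Klotho in hepatocytes, fell by 0.97 ± 0.11 (limma, adjusted p = 7.01e-05) and Fgfr3 fell by 0.76 ± 0.08, while Fgfr2 rose by 0.37 ± 0.04. Of 13 genes of the lipoprotein lipase system 4 rose and 2 fell. Among them the fatty acid transporter Cd36 rose by 0.82 ± 0.13, and Angptl8, which encodes another secreted factor, fell by 0.86 ± 0.14 (limma, adjusted p = 0.000773).

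Of 13 genes of activins, follistatin-like proteins, their receptors and SMADs, a list that leaves out Inhbe and Fst, 0 rose and 6 fell, including the receptor genes Acvr1 (-0.30 ± 0.06) and Acvr2b (-0.26 ± 0.06) and the inhibitory Smad7 (-0.44 ± 0.08), in the same livers in which Inhbe rose. The list's median was -0.20, against -0.0054 for all genes tested. Of 12 genes of the leptin receptor pathway 4 rose and 2 fell, with Stat5a up by 0.58 ± 0.07 and the receptor's kinase Jak2 at -0.43 ± 0.08. Of 12 genes of the integrated stress response, to which Gdf15 belongs, the amino acid synthesis genes Psat1 (0.66 ± 0.14) and Asns (0.48 ± 0.13) rose and 0 fell.

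Of 17 genes of the glucagon receptor pathway 2 rose and 6 fell. The gluconeogenic coactivator gene Ppargc1a fell by 0.99 ± 0.07 (limma, adjusted p = 4.77e-06) and Pck1, which encodes a gluconeogenic enzyme, fell by 0.44 ± 0.05. Of 16 genes of the insulin receptor pathway 4 rose and 2 fell. Of 23 other secreted liver proteins 1 rose and 6 fell. These counts were not tested against the shares over all genes.

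The diets were compared over 4 mice each in a fit that also held treatment and weight class. The class was set within each diet, so weight differences between diets were not adjusted for. The study describes CR mice as the lightest, and the part of body weight in the CR differences was not tested. Calorie restriction set Inhbe, Klb and Lepr apart: relative to C, Inhbe fell, and Klb and Lepr rose. These are 3 of 7 members called, against 10.5% of all genes (4.54% higher and 5.98% lower). Against MF the same 3 genes were called in the same directions (12.7% of all genes called, 5.79% higher and 6.87% lower). The comparisons share the CR arrays, so they are not separate evidence.

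Inhbe measured 9.79, 10.67, 8.84 and 8.36 in CR (Wy high, Wy low, mock high and mock low body weight), against 11.52, 11.66, 10.70 and 10.70 in C. Every CR liver lay below every C liver, though the CR mouse of low body weight given Wy, at 10.67, was close to the mock C mice. The difference of -1.73 ± 0.25 was 3.32-fold lower in CR (limma, adjusted p = 0.00094). MF livers measured 11.83, 11.46, 11.17 and 10.33, and CR was lower than MF by 3.44-fold (-1.78 ± 0.25, adjusted p = 0.00065).

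Lepr measured 10.14, 10.73, 10.36 and 9.97 in CR, against 7.42, 9.37, 7.47 and 9.20 in C. All 4 CR livers were above the highest of the other 12 livers, 9.62. The difference from C was 1.94 ± 0.36, or 3.83-fold (limma, adjusted p = 0.00398). In MF it measured 8.10, 9.10, 7.67 and 8.29, and CR was higher than MF by 2.01 ± 0.36, or 4.03-fold (adjusted p = 0.00313).

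Klb measured 9.69, 9.59, 9.95 and 9.63 in CR, against 8.78, 9.13, 8.79 and 9.46 in C. The groups did not overlap, by a narrow margin at the low body weight C mouse given mock. The rise was 0.68 ± 0.18, or 1.60-fold (limma, adjusted p = 0.0294), and the call was lost without any 1 of 6 arrays, the 4 of C and the 2 of high body weight CR mice (differences 0.53 to 0.72, adjusted p 0.0521 to 0.0986). Against MF, where Klb measured 8.52, 9.11, 8.35 and 9.55, it was 1.78-fold higher in CR (0.83 ± 0.18, adjusted p = 0.00933).

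Within each treatment, with 2 mice a diet, the directions were those of the full comparison. Inhbe in CR minus C was -1.36 among Wy arrays and -2.10 among mock arrays (limma, adjusted p = 0.103 and 0.0513), Lepr 2.04 and 1.83 (0.067 and 0.168), and Klb 0.69 and 0.67 (0.201 and 0.443), none of them past the threshold. Some marker levels of cell types also moved with CR. The summed hepatocyte markers were 44415 to 48469 in CR and 40205 to 44112 in C. Of 2 erythroid markers measured Alas2 fell by 1.34 ± 0.14, while the other was higher and not called (list median -0.52). Summed erythroid markers were 326 to 378 in CR and 733 to 974 in C. Of 4 lymphocyte markers Cd79b fell by 0.77 ± 0.21 (sums 243 to 318 in CR and 275 to 513 in C) and of 7 stellate cell and fibroblast markers Col1a1 fell by 0.42 ± 0.10 (4988 to 5760 and 5030 to 6151). Of 5 hepatocyte markers (list median 0.034) Tat, which is also on the glucagon receptor pathway list, rose by 0.65 ± 0.15. Against MF, Alas2 fell by 1.34 ± 0.14, while the other erythroid marker was higher. Cd79a fell by 0.79 ± 0.23 and Col1a1 by 0.56 ± 0.10 (list median of the latter -0.18). Of 6 sinusoidal endothelial markers Lyve1 fell by 1.32 ± 0.34 and Kdr rose by 0.47 ± 0.14 (list median 0.098). Tat rose by 0.60 ± 0.15 (hepatocyte list median 0.035). The part of these markers in the Inhbe, Lepr and Klb differences was not tested.

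The INT mice, killed in a week of free MF feeding, were set against CR. Inhbe was higher in INT and Lepr lower, 2 of 7 members against 9.85% of all genes called (5.57% higher and 4.28% lower). Inhbe measured 11.32, 10.93, 10.75 and 10.54 in INT, and 3 of the 4 CR livers lay below all of these. The difference was 1.47 ± 0.25, or 2.77-fold (limma, adjusted p = 0.00262), and without the 2 arrays of the other code it was 1.37 (adjusted p = 0.0563). Lepr measured 9.46, 9.62, 7.84 and 8.19 in INT, below all 4 CR livers, with both Wy livers above both mock livers. It was lower by 2.88-fold (-1.53 ± 0.36, adjusted p = 0.0167), and the call was lost without the high body weight CR mock array (-1.23, adjusted p = 0.0528), the high body weight INT mock array (-1.42, adjusted p = 0.0564) or the low body weight INT mock array (-1.26, adjusted p = 0.0573). Some cell type markers moved with this comparison too. Of 2 erythroid markers measured Alas2 was higher in INT by 1.45 ± 0.14, while the other was lower (sums 763 to 1065 in INT and 326 to 378 in CR). Of 4 lymphocyte markers Cd79a was higher by 0.82 ± 0.23 (278 to 383 in INT and 243 to 318 in CR). Of 5 hepatocyte markers Tat was lower, at -0.76 ± 0.15 (sums 41483 to 43856 in INT and 44415 to 48469 in CR). Their part in the Inhbe and Lepr differences was not tested.

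Klb measured 8.74, 9.54, 9.13 and 9.60 in INT and differed from CR by -0.46 ± 0.18, which did not pass (limma, adjusted p = 0.13; without the low body weight CR mock array -0.62, adjusted p = 0.0492). Gcgr was between 10.98 and 11.07 in INT and between 10.80 and 10.85 in CR. The groups did not overlap, but the difference of 0.19 ± 0.06 missed the threshold (limma, adjusted p = 0.0715) and passed it only with trend and robust moderation (adjusted p = 0.0446).

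Fgf21 had its lowest mean in CR, with 7.15, 7.18, 5.19 and 5.81, and neither its difference from C (-0.52 ± 0.26, adjusted p = 0.223) nor those from MF (-0.63, adjusted p = 0.127) and of INT from CR (0.56, adjusted p = 0.204) passed. Angptl4 and Insr were called in no diet comparison. No member was called in INT minus C, INT minus MF or MF minus C, where 0.00701%, 0% and 0% of all genes were called (1405, 1629 and 628 genes at an unadjusted p under 0.05). In order of mean level Lepr ran CR, INT, C and MF (10.30, 8.78, 8.36 and 8.29), and only the step between CR and INT passed the test. Klb ran CR, INT, C and MF as well (9.72, 9.25, 9.04 and 8.88), with no neighbouring step past the test. Inhbe ran MF, C, INT and CR (11.20, 11.14, 10.88 and 9.41), and only its last step passed.

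**Figure D3:**
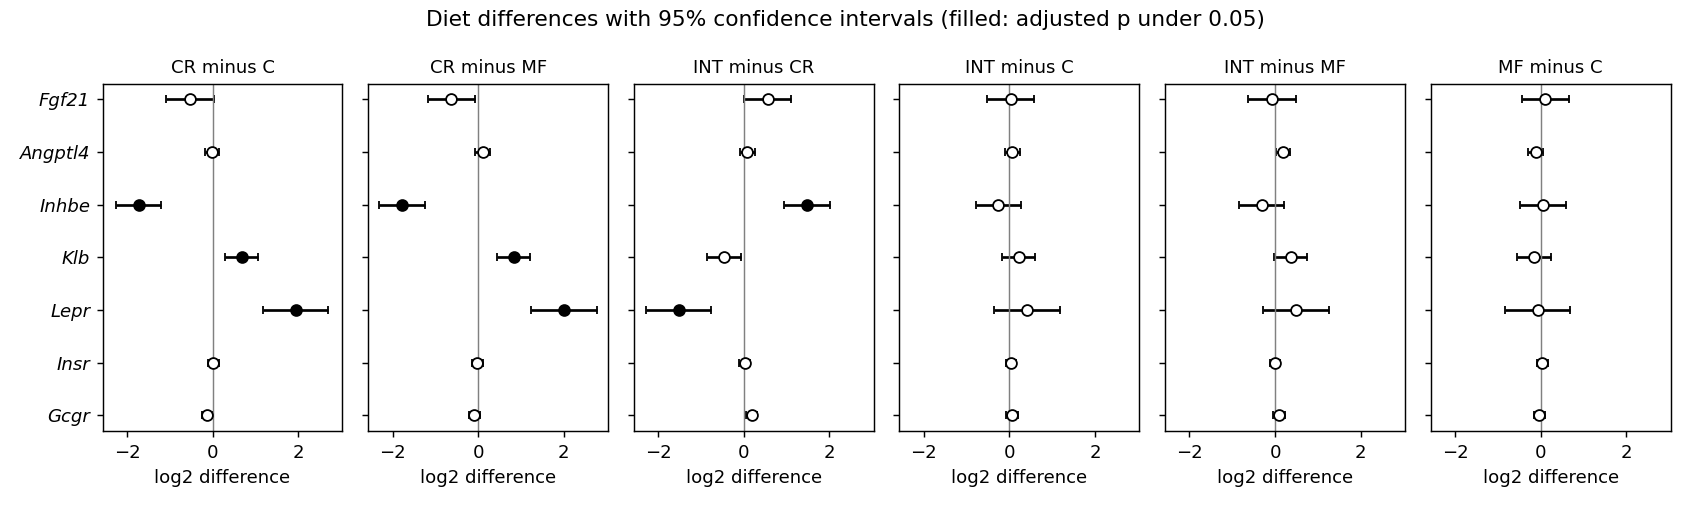
Difference in log2 intensity between diets (horizontal axes) for the 7 genes (vertical axis), with 95% confidence intervals from the fit over 16 arrays; filled points passed at an adjusted p under 0.05 over all genes. All 8 filled points belong to Inhbe, Klb or Lepr and to comparisons with CR.

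In the pathway lists, the glucagon list was the one with most genes higher in CR than in C (4 of 17, 0 lower, against 4.54% higher and 5.98% lower of all genes, untested). Ppargc1a was higher by 1.44 ± 0.18 (limma, adjusted p = 0.000422), Sik1 by 1.05 ± 0.20 and Pck1 by 0.32 ± 0.08. Of 23 other secreted proteins the IGF-binding protein genes Igfbp1 (1.83 ± 0.42) and Igfbp2 (0.92 ± 0.25) rose, and Lect2 fell. The insulin list gave 1 higher and 2 lower of 16: Irs2, an adaptor of the insulin receptor, rose by 0.80 ± 0.17, while Grb14, a receptor inhibitor, fell by 0.41 ± 0.08 and Pik3r1 fell by 0.51 ± 0.12. The activin receptor gene Acvr1b fell by 0.66 ± 0.11, the only change among 13 in its list, and Stat5a fell by 0.69 ± 0.12, the only change among 12 leptin pathway genes. None of the 10 FGF21 signalling genes was called, and in CR minus MF 1 of them, Fgfr1, fell by 0.52 ± 0.11. In INT minus CR the glucagon list had 0 genes higher and 5 lower, with Ppargc1a at -1.71 ± 0.18 (limma, adjusted p = 9.07e-05), and Igfbp1 was lower by a difference of -2.11 ± 0.42. Acvr1b (0.52 ± 0.11) and Stat5a (0.58 ± 0.12) were higher in INT than in CR, each the only call of its list.

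Body weight class was compared within C and MF, where the study describes a wide spread of weight. Klb and Lepr fell in mice of high body weight (heavy) relative to those of low body weight (light), and no member rose. These 2 of 7 members stand against 7.39% of all genes called, 4.67% higher and 2.72% lower. The classes did not overlap for either gene.

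Klb measured 8.78 and 8.79 in heavy C mice and 8.52 and 8.35 in heavy MF mice (Wy, then mock), against 9.13 and 9.46 in light C mice and 9.11 and 9.55 in light MF mice. The difference was -0.70 ± 0.10, or 1.62-fold lower (limma, adjusted p = 0.0043). Lepr measured 7.42 and 7.47 in heavy C mice and 8.10 and 7.67 in heavy MF mice, against 9.37 and 9.20 in light C mice and 9.10 and 8.29 in light MF mice. It was 2.51-fold lower (-1.33 ± 0.27, adjusted p = 0.0165). The Lepr call was lost without the heavy C Wy (-1.14, adjusted p = 0.0624), heavy MF mock (-1.38, adjusted p = 0.0538), light C mock (-1.20, adjusted p = 0.0728) or light MF mock array (-1.38, adjusted p = 0.0674).

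The high and low classes of CR and INT did not give these calls: the difference was -0.21 ± 0.10 for Klb (95% confidence interval -0.43 to 0.01, adjusted p = 0.968) and -0.18 ± 0.27 for Lepr (-0.77 to 0.42, adjusted p = 0.985), where 0% of all genes were called (679 at an unadjusted p under 0.05). Klb was lower in the high class in both INT comparisons and higher in both CR comparisons, and the 2 INT mice of high body weight are those with the other array code. The difference between both body weight effects was -0.49 ± 0.14 for Klb (limma, adjusted p = 0.137) and -1.15 ± 0.38 for Lepr (adjusted p = 0.191), so neither was shown to depend on the diets (0.855% of all genes called).

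**Figure D4:**
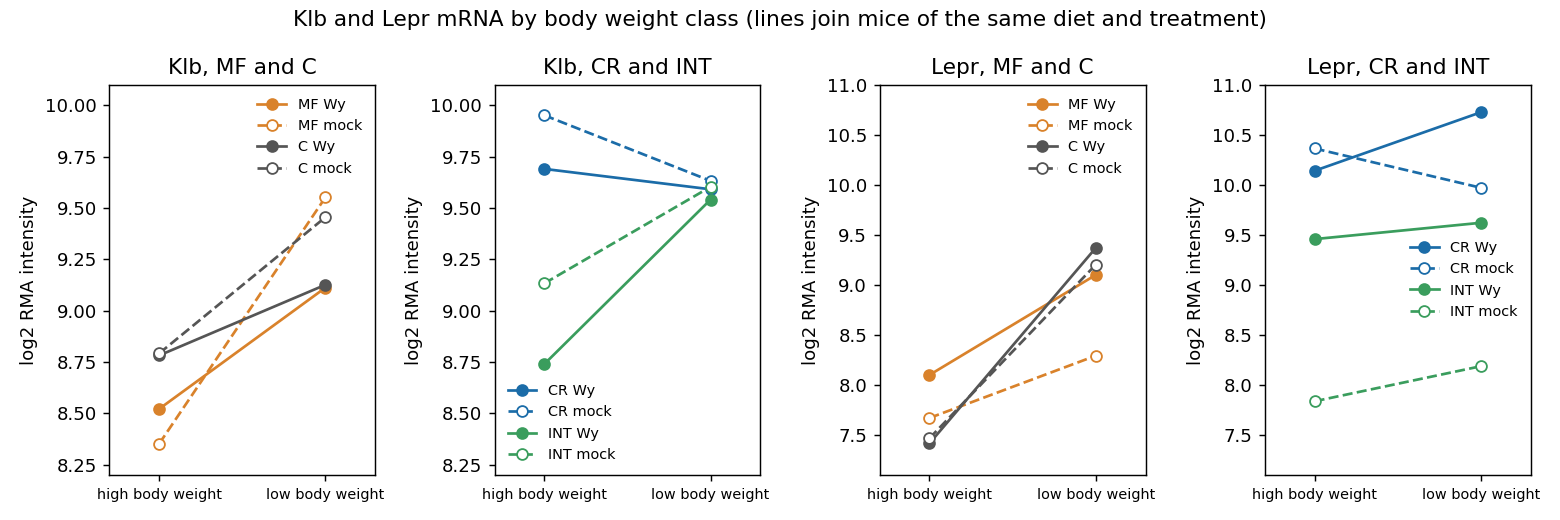
log2 RMA intensity (vertical axes) of Klb and Lepr in mice of high and low body weight; each line joins mice of 1 diet and treatment, solid with filled points for Wy and dashed with open points for mock. In MF, C and INT all lines rise towards low body weight, whereas of the CR lines both of Klb and that of Lepr in mock fall.

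Other cell type markers moved with body weight in C and MF. Of 7 stellate cell and fibroblast markers Col1a1 (0.55 ± 0.07) and Col3a1 (0.53 ± 0.13) rose, and their list's summed intensity was 5719 to 6363 in heavy and 5030 to 5578 in light mice. Of 6 macrophage markers Cd68 rose (0.76 ± 0.17) and Timd4 fell by 0.71 ± 0.19 (sums 3352 to 5024 and 3174 to 3606), and hepatocyte sums were 40205 to 43230 in heavy and 42476 to 44112 in light mice. Of 6 sinusoidal endothelial markers Lyve1 (0.97 ± 0.25) and Pecam1 (0.28 ± 0.07) rose, though the list's median was -0.036 (sums 5373 to 6146 and 5130 to 5395). Of 4 genes tested on the lymphocyte list Ptprc, which leukocytes in general express, rose (0.70 ± 0.11, sums 354 to 513 and 275 to 364). Of 2 erythroid markers measured Alas2 fell by 0.45 ± 0.11 (sums 626 to 783 and 891 to 1087). Their part in the Klb and Lepr differences was not tested. In the pathway lists, 4 of 13 lipase system genes rose (4.67% of all genes, untested), among them Cd36 (1.40 ± 0.18) and Lpl itself (1.00 ± 0.27). Igfbp2 fell by 1.31 ± 0.11 (limma, adjusted p = 0.000554) and the macrophage glycoprotein gene Gpnmb rose by 2.22 ± 0.38, while Irs1 fell by 0.55 ± 0.10 and Inhba, another activin subunit gene, fell by 0.83 ± 0.15.

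Insr and Gcgr passed in none of these comparisons. Insr ranged from 10.50 to 10.76 over the 16 livers and Gcgr from 10.80 to 11.07. In the Insr cluster used, the largest difference among the diet and body weight comparisons was that of heavy against light mice in C and MF, -0.09 (95% confidence interval -0.23 to 0.04). The second Insr cluster gave 0.10 for INT minus CR (limma, adjusted p = 0.344). For the difference between both body weight effects it gave -0.12 (adjusted p = 0.562). Gcgr was lower in CR than in C by a difference of -0.13 (-0.26 to 0.0034, adjusted p = 0.21) with no overlap between the groups, and heavy minus light mice in C and MF gave -0.13 (-0.25 to 0.0023, adjusted p = 0.224).

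The genes whose levels followed each member most closely over the 16 arrays are given as a description. The arrays share treatments, diets and normalisation. For Fgf21 they were Synpo (Pearson r = 0.958), Hilpda (0.953) and Lamb3 (0.944), and for Angptl4 the acyl-CoA thioesterase gene Acot1 (0.979), Hsdl2 (0.975) and Crat (0.969). Inhbe was followed by Stat5a (0.951), the carnitine palmitoyltransferase gene Cpt1a (0.951) and Cenpv (0.941). Klb was followed by Grb7 (0.937), Plekhg3 (0.922) and Acbd5 (0.916), and Lepr by Cct7 (0.917), Coq10b (0.915) and Rps24 (0.886). For the insulin and glucagon receptors the closest were Arfrp1 for Insr (0.845) and Zfp157 for Gcgr (0.904).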

How the data were processed

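Liver RNA of 16 mice, 1 mouse per array, was measured on Affymetrix mouse whole-transcript gene arrays. The deposited values are log2 intensities per transcript cluster, background-corrected, quantile-normalised and summarised by the authors with RMA (version not given in the sources used here). RMA forces all arrays to 1 distribution, so changes are relative to the other transcripts. Arrays carry no read depth, and the number of mice limits the precision. Of 35556 clusters the platform annotation gave 21218 to 1 gene, 1881 to several and 12457 to none. Clusters with several genes or none were left out. For each of 18820 genes the cluster with the highest mean was kept, and 14275 genes with an intensity over 20 on at least 5 arrays were tested. No normalisation was repeated.

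limma 3.58.1 (R 4.3.3) was fitted across all tested genes with Benjamini-Hochberg adjustment, after the fit had been tested on simulated data. Wy was compared with mock with the matched pair as a block. The diet fit also held treatment and weight class, and body weight classes were compared with each combination of diet and class as a group and treatment as a term. The pairs come from the labels, which match mice by weight within a diet. As a check, the high minus low body weight difference of Wy mice correlated with that of mock mice at 0.531 (C), -0.169 (CR), 0.564 (MF) and 0.0839 (INT) over all genes. Mice are separate animals, but no array was repeated.

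The members, gene lists and motifs were chosen with earlier results of these data known. Named genes are all members, up to 4 genes of smallest p per list and comparison, of which those described were picked, and for each member the 3 genes of highest Pearson r, predicted gene models and olfactory receptors aside. Of the 7 members, 5 had an entry in the RefSeq promoter table. Alternatives were no pair block, no filter, median centring, trend and robust moderation, leaving out each array or both arrays of the other code, and 1 treatment alone. Python 3.11.15 was used for descriptions. An item of background is not reported here.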

Additional observations from a re-analysis of the deposited data

Results flagged for a closer look

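The low body weight MF mouse given mock had an Angptl4 level of 10.21, below the other 7 mock livers (nearest 10.50). The same mouse's pair had the highest Angptl4 difference between Wy and mock, 0.99, with the next at 0.65. The Inhbe difference of the low body weight CR pair, 2.30, stood apart from the other 7 pairs (next 1.13). In each case the gap to the nearest value was larger than Dixon's 95% criterion allows. Chance passes about 1 in 20 groups, and 49 groups were examined.

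Insr was lower in the Wy mouse of both INT pairs and higher in the Wy mouse of both pairs of each other diet. The mean Wy minus mock difference in INT lay 0.20 from that in C, 0.12 from that in CR and 0.15 from that in MF. These pairwise differences were not tested. The F test over all diets gave an adjusted p = 0.997 for Insr (limma).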

How the results depend on the processing

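The number of members called in Wy minus mock was 4, and 3 without the replicate block, with trend and robust moderation or without the arrays of the other code; each time Lepr was lost. Fgf21, Angptl4 and Inhbe kept their calls under all 5 other settings and all 16 leave-one-out fits. With 2 mice per diet, the number called in CR minus C was 0 in either treatment alone (mock arrays only, 0; Wy arrays only, 0) against 3 in the full fit. In CR minus MF it was 1 for mock arrays only (Inhbe) and 0 for Wy arrays only, against 3. In INT minus CR it was 1 for mock arrays only, 0 for Wy arrays only and 1 without the arrays of the other code, against 2, and 1 to 3 when single arrays were left out. The share of all genes called was not counted under these other settings, so the counts of members have no background there. The Wy-only setting was chosen after seeing the data. For body weight in C and MF the count was 1 to 2 on leaving out single arrays, against 2. Signs turned, with no call on either side, for Gcgr in Wy minus mock (-0.0073 to 0.024 on leaving out single arrays) and Lepr by body weight class in CR and INT (-0.46 to 0.11). No filter and median centring changed no call of the members reported. The setting without the other code was not run for the body weight effect in CR and INT or its difference from C and MF, since it leaves no high body weight INT mouse. With 8 pairs, 4 mice per diet and 2 per diet and treatment, a missed threshold does not show that levels were alike.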
